A study of Arabidopsis thaliana with 6 samples.

Results

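Cytochrome P450 genes were followed in rosette leaves of the Arabidopsis thaliana pad4 mutant and of the pad4 est1b double mutant. The members are the genes whose symbol in the platform annotation has the form of a P450 family name (CYP, a family number and a subfamily letter) and that a probe set names alone. The rule took 23 genes, each with 1 probe set, out of 13350 genes that a probe set of the array names alone. The array has 22746 non-control probe sets, of which the annotation used here names 13513 with 1 gene and 503 with several, so a gene without a named probe set may still be on the array. CYP71B made up 19 of the 23, and CYP51G2, CYP78A9, CYP79A2 and CYP84A4 were the 4 others. The RefSeq gene table of TAIR10.1 holds 236 genes with such symbols, 36 of them CYP71B, and those outside the 23 were not analysed here.

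The series holds 6 Affymetrix ATH1 arrays of total RNA, 3 per genotype. The control group carries the pad4-1 mutation (stock N3806, strain Col), and the double mutant (strain Col-0) carries pad4-1 together with the insertion SALK_073354, with knock-outs labelled for At5g19400 (est1b-1) and At3g52430 (PAD4). Loss of PAD4 is thus shared by all 6 samples, and no wild-type or est1b single mutant was included here. All plants were grown on soil for 2 weeks at high and 3 weeks at lower humidity without any treatment, and pad4 replicates 2 and 3 are labelled as stage 3.90, all other samples as stage 5.10. Stage 3.90 thus occurs in pad4 alone, so stage and genotype cannot be fully told apart. Whether the replicates are separate plants or pools is not labelled, and p-values then cover only the spread among these 6 samples, which may be technical.

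P450 enzymes are haem-containing oxygenases, most of them anchored in the endoplasmic reticulum, that insert oxygen into a wide range of plant metabolites with electrons passed on by a reductase. In Arabidopsis they act in the synthesis of hormones, sterols, phenylpropanoids, glucosinolates and the indole phytoalexin camalexin. CYP71B is a large subfamily with many genes side by side on the chromosomes and few assigned substrates; its best known member makes camalexin and is not among the genes named here. EST1B belongs to the nonsense-mediated mRNA decay pathway, and PAD4 is a regulator of salicylic acid defence.

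The arrays had total signals between 3405664 and 3894818 units. Among leaf markers the rubisco activase gene RCA and the antenna protein gene LHCB4.2 had a named probe set (2 of 8 listed) and lay between 4990.3 and 9805.3 units, while 3 of 4 root markers (PYK10, EXPA7, EXPA18) lay between 0.17 and 18.4. The summed root marker signal ran from 9.17 to 16.3 units in pad4 and from 14.4 to 29.4 in the double mutant. All 3 root markers were dim, with means from 5.6 to 5.9 units, and the genotypes overlapped in each. The sum of 29.4 includes 18.4 units of EXPA7 in double mutant replicate 2. Markers of flower, seed and senescing leaf were not analysed here. In a leaf sample, fewer cells of a type and less RNA per cell cannot be told apart.

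No P450 gene passed the test of a genotype difference. Of the 23 genes 0 passed an adjusted p of 0.05 by limma, with a background of 0% (0 of 22746 probe sets), and 0 passed an unadjusted p of 0.05, with a background of 5.08% (1156 probe sets). The smallest p among the members was 0.053, for CYP71B6 (adjusted p = 0.989 by limma). With the fit limited to the 12804 probe sets with a mean signal of at least 20, limma called 5 probe sets (0.0391%) and 0 of the 12 P450 genes kept, and at an unadjusted p of 0.05 it had 4.44% of all and again 0 of the 12.

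The direction of the differences was mixed. The double mutant had the higher value in 14 and the lower in 9 of the 23 genes, and 53.3% of all probe sets had a higher value. The median log2 fold change (double mutant over pad4, on the log2(signal + 10) scale) was 0.04 over the 23 genes and 0.02 over all probe sets. It was 0.14 over the 19 CYP71B genes, which ran from -0.29 to 0.73, and -0.12 over the 4 others, which ran from -0.67 to 0.04. All 3 double mutant arrays lay above all 3 pad4 arrays in 2 genes, CYP71B6 and CYP71B25, where 5.52% of all probe sets did so. The reverse held for 1 gene, CYP71B30P, and for 3.86% of all probe sets.

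**Figure D1:**
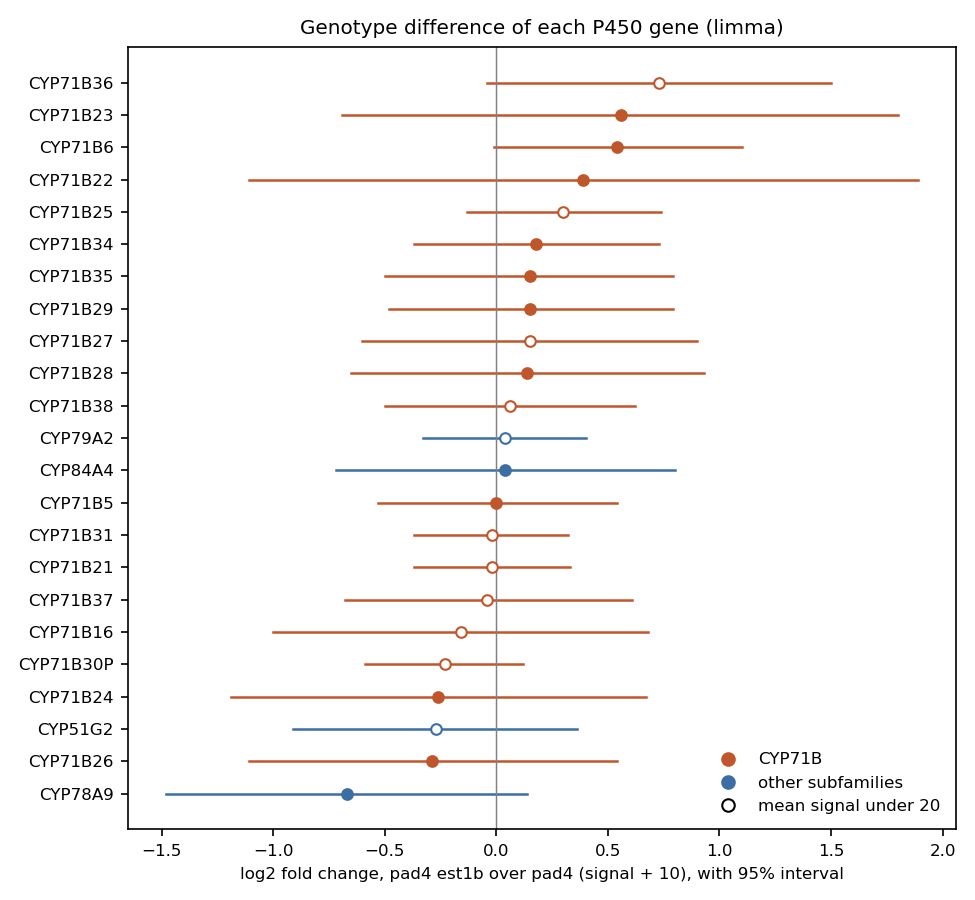
Log2 fold change of each of the 23 P450 genes, double mutant over pad4 on the log2(signal + 10) scale, with its 95% interval from limma (3 arrays per group). Filled points have a mean signal of at least 20 and open points a lower one. Every interval includes 0; CYP71B36 is highest at 0.73 and CYP78A9 lowest at -0.67.

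The signals divide the members. A mean signal of at least 20 units over the 6 arrays was reached by 12 of the 23 genes (56.3% of all probe sets reached it), 10 of them CYP71B, with array values from 7.9 to 235.9. Among these 12 the double mutant arrays all lay above the pad4 arrays in 1 gene, CYP71B6 (6.41% of all probe sets of that brightness), and all below in 0 (3.4%). The double mutant had the higher value in 9 of these 12 and the lower in 3, against 6990 and 5814 of the 12804 probe sets of that brightness. The median log2 fold changes were 0.14 and 0.03, and this difference was not tested. The other 11 genes had means from 0.36 to 15.0. A probe set's signal also depends on its own probes, so signals of different genes are not compared, and the log2 scale with its offset of 10 compresses the differences of the dim genes.

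CYP71B6 converts indole-3-acetonitrile towards indole-3-carboxylic acid derivatives and so stands beside the camalexin and indole glucosinolate pathways. Its signals were 167.3, 188.7 and 109.2 units in pad4 replicates 1, 2 and 3 and 230.5, 209.9 and 235.9 in the double mutant. The groups did not overlap, and pad4 replicate 3 was the lowest array. The means were 155.1 ± 41.2 and 225.4 ± 13.7 (SD, n = 3). The log2 fold change was 0.54 ± 0.23 (SE), with a 95% interval from -0.01 to 1.10, and the gene did not pass (adjusted p = 0.989 by limma). Without pad4 replicate 3 the value was 0.33 (adjusted p = 0.839 by limma), and without both replicate 3 arrays it was 0.29. Of 12 listed genes of the camalexin and indole glucosinolate pathways CYP71B6 was the only P450 with a named probe set, and of 8 listed neighbours of these enzymes only UGT74B1, a glucosyltransferase of glucosinolate synthesis, had one. UGT74B1 had 244.4, 150.3 and 119.0 units in pad4, against 177.1, 145.1 and 115.5 in the double mutant, with overlapping groups and a log2 fold change of -0.18 ± 0.30 (SE).

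CYP78A9, a gene that promotes the growth of fruits and seeds, had the lowest log2 fold change of the 23 members. It gave 45.5, 36.8 and 22.0 units in pad4, against 22.7, 25.0 and 7.9 in the double mutant. The groups overlapped through pad4 replicate 3, which lay just below 2 of the double mutant arrays. The means were 34.8 ± 11.9 and 18.5 ± 9.3 (SD, n = 3), the log2 fold change was -0.67 ± 0.34 (SE) with a 95% interval from -1.48 to 0.14, and the gene did not pass (adjusted p = 1.00 by limma). The value depended on single arrays, with -0.37 without double mutant replicate 3 and -1.02 when samples of stage 5.10 alone were used, a fit with 1 pad4 array whose spread is assumed equal to that of the rest. In a limma fit with a term for the replicate number 0.0044% of all probe sets and 0 of the 23 P450 genes were called, while 9.43% and 2 genes (CYP78A9 and CYP71B22) stood under an unadjusted p of 0.05.

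CYP84A4, an enzyme of arabidopyrone synthesis related to the ferulate 5-hydroxylase of lignin formation, had nearly equal means of 36.7 ± 16.9 and 36.1 ± 6.7 (SD, n = 3). It had 18.4, 39.8 and 51.9 units in pad4, against 28.9, 42.2 and 37.1 in the double mutant, so the pad4 arrays enclosed all double mutant arrays. The log2 fold change was 0.04 with a 95% interval from -0.72 to 0.80, and 0.68 with stage 5.10 alone, where pad4 is represented by its lowest array. HCT, the only one of 6 listed phenylpropanoid neighbours with a named probe set and an acyltransferase of monolignol synthesis, had a log2 fold change of -0.10 ± 0.20 (SE). CYP79A2, which makes phenylacetaldoxime for benzylglucosinolate, stayed between 0.59 and 2.3 units on all arrays. CYP51G2, a transcribed pseudogene in RefSeq related to the sterol 14-demethylase gene, stayed between 0.84 and 9.1.

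**Figure D2:**
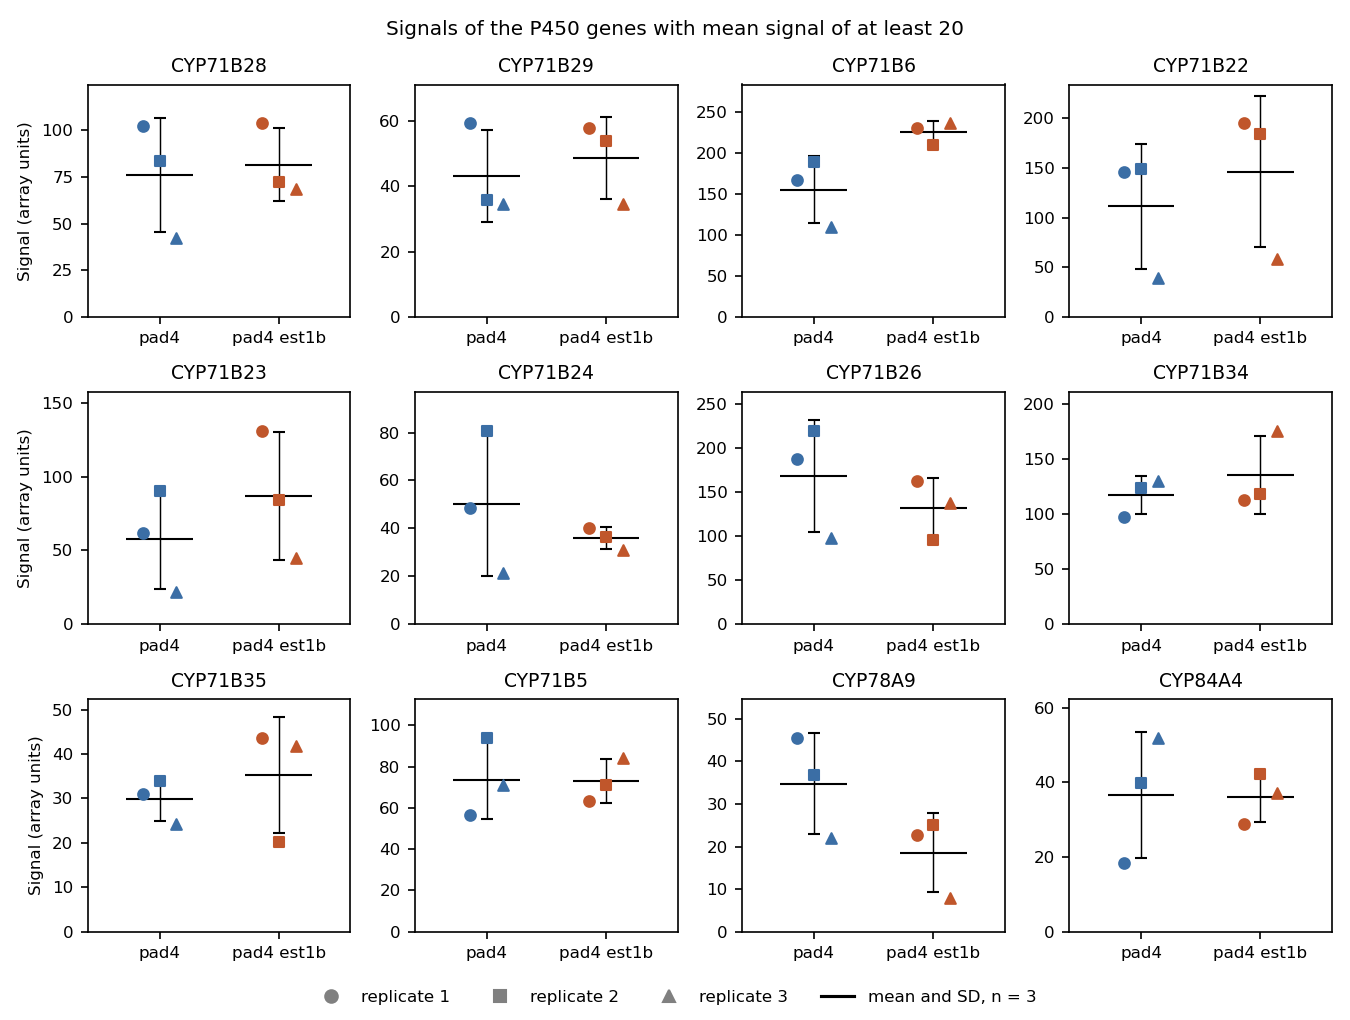
Signal of the 12 P450 genes with a mean of at least 20 units in each of the 6 arrays, by genotype, each panel with its own linear axis from 0. Symbols give the replicate number, horizontal lines the mean and bars the SD (n = 3). The groups are apart in CYP71B6 alone; in CYP71B22 both replicate 3 arrays, at 38.8 and 58.4, lie below the other 4.

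The CYP71B genes lie in runs. Counting P450 genes with at most 3 other genes between neighbours, in the gene order of TAIR10.1, 17 of the 23 members share a run with another member. A run of 10 P450 genes on chromosome 3 holds CYP71B16, CYP71B21, CYP71B22, CYP71B23 and CYP71B24. A run of 8 on the same chromosome holds CYP71B25, CYP71B26, CYP71B34, CYP71B35, CYP71B36 and CYP71B37. A run of 4 holds CYP71B5, CYP71B30P and CYP71B31, and a run of 7 on chromosome 1 holds CYP71B27, CYP71B28 and CYP71B29. All 23 probe sets have names ending in _at without the s or x that marks probes open to several transcripts, and 2 probe sets shared by several P450 genes were left out.

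In the first run CYP71B22 and the next P450 gene, CYP71B23, had the largest standard errors of the 23 members. CYP71B22 had 146.1, 149.3 and 38.8 units in pad4, against 195.2, 184.7 and 58.4 in the double mutant. CYP71B23 had 62.1, 90.0 and 21.8 in pad4, against 131.1, 84.1 and 44.9 in the double mutant. In both genes the replicate 3 array was the lowest of its genotype, and the genotypes overlapped. The log2 fold changes were 0.39 ± 0.62 (SE) for CYP71B22 and 0.56 ± 0.52 (SE) for CYP71B23, and the 95% intervals ran from -1.11 to 1.89 and from -0.69 to 1.80. Folds of up to 3.70 and 3.49 thus lay inside them. Without pad4 replicate 3 they were -0.17 and 0.08. CYP71B24, the next member in the run, had 48.3, 80.8 and 21.2 units in pad4, against 40.3, 36.6 and 31.0 in the double mutant, with a log2 fold change of -0.26 ± 0.39 (SE) that became 0.10 without pad4 replicate 2 and -0.67 without pad4 replicate 3. Its pad4 arrays enclosed the double mutant arrays.

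In the 3 brighter genes of the second run the highest array was 1.81 to 2.30 times the lowest, where it was 3.82 to 6.01 times in CYP71B22, CYP71B23 and CYP71B24. CYP71B26 had 187.5, 220.1 and 98.1 units in pad4, against 163.1, 95.8 and 137.7 in the double mutant, with a log2 fold change of -0.29 ± 0.34 (SE), and -0.66 without both replicate 3 arrays. CYP71B34 had 97.4, 123.7 and 130.3 units in pad4, against 112.7, 117.9 and 175.9 in the double mutant, with a log2 fold change of 0.18 ± 0.23 (SE). CYP71B35 had 31.1, 34.0 and 24.3 in pad4, against 43.6, 20.2 and 41.9 in the double mutant, with a log2 fold change of 0.15 ± 0.27 (SE) that was 0.41 without double mutant replicate 2 and 0.00 without double mutant replicate 1. The genotypes overlapped in all 3 of these genes. CYP71B36 is named after its values were seen, since its mean of 15.0 lies under 20 units. It had 4.9, 11.8 and 8.4 units in pad4, against 21.4, 10 and 33.5 in the double mutant. Its log2 fold change of 0.73 ± 0.32 (SE), with a 95% interval from -0.04 to 1.5, was the highest of the 23 members. Double mutant replicate 2 lay inside the pad4 range, and the gene did not pass (adjusted p = 1.00 by limma).

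The brighter genes of the other runs had log2 fold changes from 0.00 to 0.15. CYP71B5 had 56.4, 93.9 and 70.9 units in pad4, against 63.5, 71.2 and 84.4 in the double mutant. Its log2 fold change was 0.00 ± 0.22 (SE), and the 95% interval covers folds from 0.694 to 1.45, the narrowest of the brighter genes. CYP71B28 had 102.3, 83.4 and 42.2 units in pad4, against 103.9, 72.6 and 68.4 in the double mutant, with a log2 fold change of 0.14 ± 0.33 (SE). CYP71B29 had 59.4, 35.7 and 34.5 in pad4, against 57.9, 53.8 and 34.6 in the double mutant, with a log2 fold change of 0.15 ± 0.26 (SE). The 95% intervals ran from -0.65 to 0.93 for CYP71B28 and from -0.48 to 0.79 for CYP71B29. Both genes overlapped between genotypes, and without pad4 replicate 3 the values were -0.18 and 0.04.

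The remaining CYP71B genes were dim. CYP71B25 had 0.62, 1.3 and 0.63 units in pad4, against 2.7, 1.7 and 6.2 in the double mutant, and CYP71B30P had 2.2, 2.9 and 3.2 against 0.31, 1.4 and 0.91. Their groups did not overlap, but all these values lie below the offset, and the log2 fold changes were 0.30 and -0.23. CYP71B16 had its 2 highest values in the replicate 3 arrays, 12.2 in pad4 and 5.2 in the double mutant, against values from 0.17 to 0.76 in the other 4. CYP71B27, a transcribed pseudogene in RefSeq, ranged from 0.34 to 12.3 units, CYP71B37 from 0.23 to 6.5 and CYP71B38 from 0.85 to 7.7. CYP71B21 and CYP71B31, the latter an enzyme of linalool metabolism in flowers, stayed at or below 1.1 and 0.72 units on every array.

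In most of the brighter genes, replicate 3 minus replicate 1, averaged over both genotypes, was larger in size than the genotype difference. This held in 11 of the 12 genes with a mean of at least 20 units, and in 78.7% of all probe sets of that brightness. CYP71B6 was the exception, with an average of -0.27 beside a genotype difference of 0.54. Its replicate difference was -0.57 in pad4 alone and 0.03 in the double mutant, so the average hides the spread within pad4. In CYP71B35, counted among the 11, the values were nearly equal in size, at -0.15 for the replicates and 0.15 for the genotypes. The replicate difference uses fewer arrays than the genotype difference, so from noise alone it would more often be the larger. Replicate 3 was lower by at least 1 on the log2 scale in both genotypes in 2 of the 12, CYP71B22 and CYP71B23, against a background of 11.7%, and higher by that amount in 0, against 3.23%. Replicate 3 was below replicate 1 in both genotypes in 8 of the 12, against 47.6%. Replicate 3 minus replicate 1 on the log2 scale was -1.68 for CYP71B22 in pad4 and -1.58 in the double mutant, and for CYP71B23 it was -1.18 and -1.36. CYP78A9 had -0.79 and -0.87, CYP71B29 -0.64 and -0.61, and CYP71B28 -1.10 and -0.54. CYP71B34, CYP71B5 and CYP84A4 went the other way in both genotypes, with 0.39 and 0.60 for CYP71B34, 0.28 and 0.36 for CYP71B5 and 1.12 and 0.28 for CYP84A4.

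**Figure D3:**
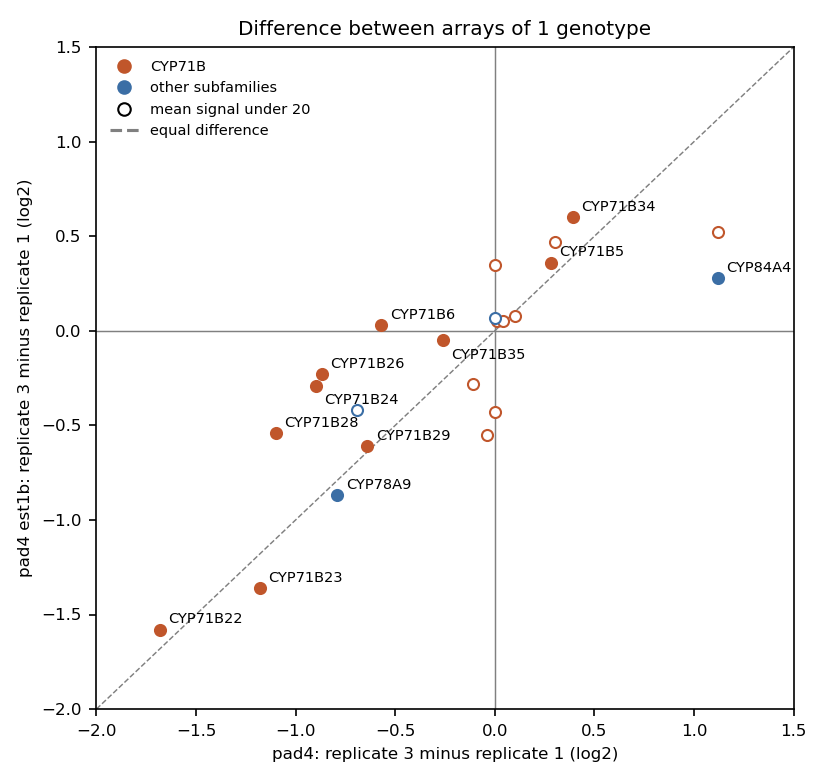
Replicate 3 minus replicate 1 on the log2(signal + 10) scale in pad4 (horizontal) and in the double mutant (vertical) for the 23 P450 genes, 1 array each, with a dashed line of equal difference. Open points have a mean signal under 20. CYP71B22 (-1.68 and -1.58) and CYP71B23 (-1.18 and -1.36) lie at the lower left, and CYP71B34 (0.39 and 0.60) lies above 0 in both genotypes.

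The arrays differed in level over the brighter genes. Relative to each gene's mean over the 6 arrays, pad4 replicate 3 was below in 10 of the 12 brighter genes, with a median deviation of -0.41 against -0.19 for all probe sets of that brightness. It was the lowest of the 6 arrays in 6 of the 12, near the background of 39.2%. Pad4 replicate 3 also had the lowest median signal over the whole array, 21.2 units, against 25.07 to 31.6 in the other arrays. Pad4 replicate 2 was below the gene mean in 2 of the 12 and double mutant replicate 1 in 4, both with a median deviation of 0.24, against 0.02 and 0.08 for all probe sets of that brightness. As a measure of RNA integrity, the log2 signal of the 3' over the 5' control probe sets, averaged over 4 actin and GAPDH pairs, was 1.481, 2.048 and 1.855 in pad4 replicates 1, 2 and 3, and 1.769, 1.781 and 1.922 in the double mutant. It was lowest in replicate 1 of each genotype, though nearly equal in double mutant replicates 1 and 2. The pairs did not all share this order. In an actin pair pad4 replicate 1 had 3.561, above replicate 3 with 3.455, and double mutant replicate 1 had 4.417, above replicate 2 with 3.499. In the other pairs replicate 1 was the lowest in both genotypes. The part of RNA integrity in the array differences was not tested.

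**Figure D4:**
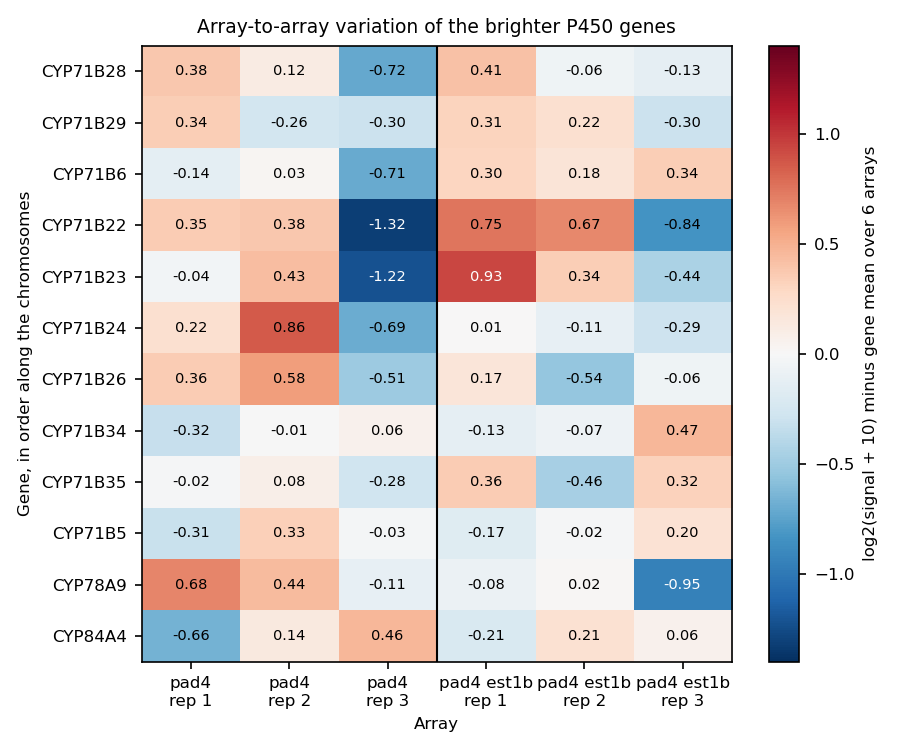
Deviation of log2(signal + 10) from the gene's mean over the 6 arrays, for the 12 P450 genes with a mean signal of at least 20, in order along the chromosomes, with 1 column per array. Blue is below and red above the gene mean. Pad4 replicate 3 is below it in 10 of the 12 genes, down to -1.32 in CYP71B22, and CYP71B6 is above it in all 3 double mutant arrays.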

How the data were processed

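Leaf RNA of 6 samples was measured on ATH1 arrays, and the sample titles gave each sample's group and replicate number. The authors deposited linear intensities, 1 signal per probe set, and the submitters' processing notes list MAS5 and GCOS without settings; detection calls were not used here. In the deposited intensities each array's 2%-trimmed mean is 100.0, so the authors had scaled the arrays to 1 level. Genes were named through the platform annotation; all 23 members matched the TAIR10.1 RefSeq table, used for names, gene type and gene order alone, and no sequence was used here.

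From the deposited signals, log2(signal + 10) was computed and the double mutant compared with pad4 in limma 3.58.1 (R 4.3.3; lmFit, eBayes, two-sided, no covariates), with Benjamini-Hochberg adjustment over all 22746 non-control probe sets and no filter on signal. Intervals are unadjusted. Tables used Python 3.11.15 with pandas 2.3.3, and figures matplotlib 3.10.9. Precision is limited by 3 arrays per group. It was gauged in 5 simulated runs over the 22746 probe sets, with 200 changed in each among those with mean signal of at least 20. There limma recovered 40.2% of changes by 2 and 4.2% of changes by 1 on the log2 scale, with 6 false calls among 228. The simulated noise was normal and independent between arrays and probe sets. The real arrays share deviations, so these rates need not hold for them. Same-numbered arrays deviated from their group means with correlations of 0.72, -0.02 and 0.58 for replicates 1, 2 and 3. The deviations of numbers 1 and 3 thus went together between genotypes, and those of number 2 did not. Deviations cancel out within a genotype, so the correlations depend on each other. Arrays of unlike number were not compared. The main comparison left the arrays unpaired, so shared deviations count as error there. Adjusting for the number in limma put 9.43% of probe sets under an unadjusted p of 0.05, against 5.08% in the main comparison. Either way 0 of the 23 P450 genes were called.

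Members, lists and tests were chosen with earlier results of these data known. Named genes were the CYP71B genes with a mean signal of at least 20, the 6 brightest, those of at least 20 with groups apart, up to 3 per pathway list, and the 4 with the largest replicate difference; other members were named to account for all 23. Of 107 P450 symbols in pathway lists 5 had a probe set named for that gene alone, and of 26 partner and neighbour genes 2.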

Additional observations from a re-analysis of the deposited data

How the results depend on the processing

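In 19 alternatives to the reported fit limma called 0 P450 genes each time. The median log2 fold change ran from -0.03 to 0.18 over the P450 genes and from 0.02 to 0.18 over CYP71B. The P450 median was -0.03 with median centring, and 0.14 and 0.18 over the 12 and 7 genes with a mean signal of at least 20 and 50. These filters change the set of genes and not the value of a gene. The 7 genes are all CYP71B, so 0.18 is the same value in both ranges. Against 0 probe sets in all, limma called 5 with a mean signal of at least 20, 6 with at least 50, and 1 each under median centring, under quantile normalization and with a replicate block, that is, a term for the replicate number. With the block CYP78A9 had an adjusted p of 0.362 by limma and CYP71B22 one of 0.519.

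Of 14 named genes 5 kept their sign in every alternative that included them: CYP51G2 (-0.81 to -0.12), CYP71B6 (0.29 to 0.69), CYP71B23 (0.08 to 0.91), CYP71B26 (-0.66 to -0.07) and CYP78A9 (-1.02 to -0.37). The filters on signal left CYP51G2 in 17 and CYP78A9 in 18 of the 19 alternatives. All signals of CYP51G2 lie below the offset. With stage as a covariate or among the samples labelled 5.10 the value turned to -0.16 for CYP71B22, -0.31 for CYP71B28 and -0.26 for CYP71B29. Both fits set the double mutant against pad4 replicate 1 alone, the only pad4 array of stage 5.10, and so give the same values. They cannot separate stage from the deviation of that array. Quantile normalization and median centring gave -0.07 and -0.06 for CYP71B5 and -0.05 and -0.03 for CYP84A4, and median centring gave -0.03 for CYP79A2. With the RNA integrity ratio of the controls as a covariate the value was -0.03 for CYP71B5 and -0.00 for CYP84A4. Without both replicate 3 arrays the value was -0.08 for CYP71B28, -0.08 for CYP71B35 and -0.11 for CYP71B5. Leaving out single arrays gave ranges of -0.17 to 0.91 for CYP71B22, -0.67 to 0.10 for CYP71B24, -0.18 to 0.37 for CYP71B28, -0.01 to 0.29 for CYP71B34, 0.00 to 0.41 for CYP71B35, -0.15 to 0.17 for CYP71B5, -0.02 to 0.09 for CYP79A2 and -0.28 to 0.28 for CYP84A4. The causes were not tested.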
